A study of Mus musculus with 6 samples.

Results

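Annexins and formyl peptide receptors were measured by RNA-seq in macrophages (MPs) sorted from regenerating mouse muscle. All 10 genes looked for by symbol were present among the 13008 rows of the table. They were 8 annexins (Anxa1, Anxa2, Anxa3, Anxa4, Anxa5, Anxa6, Anxa7 and Anxa11) and 2 receptors (Fpr1 and Fpr2). They were chosen by name.

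The 6 samples formed 2 groups of 3, Control and Cripto KO. All are labelled as skeletal muscle of C57BL/6J males aged 3 months, although a transcript given below goes against this sex in Control 1. The muscle was collected 5 days after injury with cardiotoxin, a snake venom toxin that destroys muscle fibers. Cripto KO MPs are labelled LysMCre-Cripto-deficient, meaning that Cre recombinase driven by the lysozyme M gene removed a floxed Cripto (Tdgf1) in myeloid cells. Control is labelled wild type, although the study describes both groups as sorted GFP+/F4/80+/Ly6C low cells, which places the LysMCre driver and the R26mTmG reporter in Control mice as well. Lysozyme M is active in neutrophils besides monocytes and MPs, so the driver is not specific to MPs. The Cripto gene itself was not analysed here, so the deletion could not be checked in these samples. In sorted GFP+ cells the study reports a deletion that was incomplete and a reduced level of Cripto protein. The study describes the samples as biological replicates. The p-values set the difference between groups against the spread of these 6 samples within their groups.

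Annexins are proteins that bind membrane phospholipids when calcium rises. Anxa1 and its N-terminal peptides act on formyl peptide receptors, which are G protein-coupled receptors of phagocytes that also sense bacterial and mitochondrial formylated peptides, and this axis is known for limiting leukocyte entry and favouring the change of MPs to a restorative state in injured muscle. Anxa2 pairs with S100a10 at the cell surface, where the complex binds plasminogen, and Anxa1, Anxa2, Anxa5 and Anxa6 take part in sealing torn membranes of muscle fibers.

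The N-terminal stretch of Anxa1 and Anxa2 is what sets these proteins apart within the family, so the coding sequence of both starts is shown. It was taken from the GENCODE M21 transcripts (GRCm38) and covers codons 1 to 26. Capitals mark codons 2 to 26 in Anxa1, the stretch known to give the receptor-binding peptide, and codons 2 to 15 in Anxa2, the stretch known to hold S100a10.
Anxa1: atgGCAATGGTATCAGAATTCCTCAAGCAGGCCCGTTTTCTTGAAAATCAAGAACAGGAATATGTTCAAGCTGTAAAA
Anxa2: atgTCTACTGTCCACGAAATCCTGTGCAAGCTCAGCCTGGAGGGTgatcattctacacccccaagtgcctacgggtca

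Fpr1 and Fpr2 lie head to head on chromosome 17, and the sequence upstream of each is shown. Fpr1 spans chr17:17876471-17883940 on the minus strand and Fpr2 spans chr17:17887824-17893952 on the plus strand, with 3884 bases between their start sites. The 250 bases upstream of each start are from RefSeq (GRCm38.p6), at chr17:17883940-17884189 (minus strand) for Fpr1 and chr17:17887574-17887823 (plus strand) for Fpr2. Capitals mark GAGGAA or its reverse complement TTCCTC, the core bound by the myeloid factor PU.1. It occurred 1 time in the Fpr2 window and 0 times in the Fpr1 window, and 23.253% of 32851 mouse promoter windows of this length held it, as did 3 of the 8 windows found for the 10 genes. A match describes the letters only.
Fpr1: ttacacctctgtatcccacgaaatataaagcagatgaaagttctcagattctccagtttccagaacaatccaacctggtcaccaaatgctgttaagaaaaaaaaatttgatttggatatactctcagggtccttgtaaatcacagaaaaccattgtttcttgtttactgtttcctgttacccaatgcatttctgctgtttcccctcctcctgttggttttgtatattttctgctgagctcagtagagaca
Fpr2: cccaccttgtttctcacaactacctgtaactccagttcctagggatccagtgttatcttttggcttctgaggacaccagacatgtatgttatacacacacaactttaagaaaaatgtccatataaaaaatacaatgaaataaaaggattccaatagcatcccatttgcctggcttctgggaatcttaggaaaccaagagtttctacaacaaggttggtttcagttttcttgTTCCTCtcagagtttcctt

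Values are the deposited normalized signal, a read count per 1000000 of a scaled library size. Libraries held 12688968 to 15659847 reads, and 3 reads corresponded to a signal of 0.222 to 0.286. Macrophage identity was checked with 10 markers, all present, whose summed signal was 23578 to 27651 in Control and 24235 to 26075 in Cripto KO. Ctsd alone was 12042 to 15934 in Control and 12807 to 13957 in Cripto KO, so the sum mostly describes this gene. A pair of Control libraries stood apart in single genes. Control 1 had a signal of 171 for Xist, a transcript of the inactive X chromosome, against 0.114 to 0.885 in the other samples, all labelled male. Control 2 had a signal of 11066 for Lyz2, the lysozyme M gene, against 21.2 to 28.3 in the others. This is the gene that drives Cre in the LysMCre line, and whether the Control libraries share a genotype was not tested. Fits without each library in turn are given beside the genes or as ranges at the end.

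Per length, annexin transcripts were far more abundant than those of the formyl peptide receptors. The signal per kb of exon was highest for Anxa5, at 448 ± 47.4 in Control and 433 ± 28.1 in Cripto KO (SD, n = 3 each). Anxa2 followed at 171 ± 12.03 in Control and Anxa1 at 161 ± 6.22, and these 3 genes made up 75.9% to 79.4% of the annexin signal per kb in every sample. Below them stood Anxa6, Anxa3 and Anxa4, with means over the 6 samples of 77.0, 53.3 and 45.2 per kb. Anxa11 and Anxa7 were the lowest annexins at 23.1 and 19.1 per kb.

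The receptors were near the lower end of the table. Fpr2 averaged 3.63 and Fpr1 0.941 per kb over the 6 samples. By signal without length, Fpr2 ranked above 28.1% of all rows and Fpr1 above 10.7%, whereas the annexins ranked above 86.4% (Anxa11) to 98.7% (Anxa5). In this order the ranges over samples overlapped for Anxa2 and Anxa1, which kept their order in 5 of 6 samples. They also overlapped for Anxa3 and Anxa4, for Anxa11 and Anxa7 and for Fpr2 and Fpr1, although the first of each pair was higher in 6 of 6 samples, with Fpr2 at 2.90 to 7.15 times Fpr1 per kb. Dividing by the longest coding transcript in place of all exons kept the rank of 7 of 10 genes. It moved Anxa6 below Anxa3 and Anxa4, made the ranges of Anxa5 and Anxa2 overlap, and left Anxa11 above Anxa7 in only 3 of 6 samples.

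**Figure D1:**
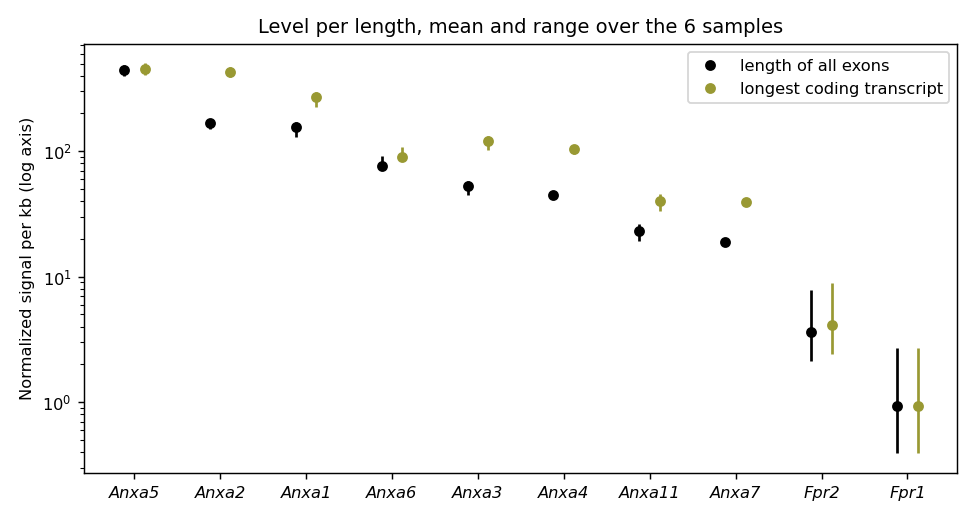
Signal per kb (log axis) of the 10 genes, ordered by their mean with the length of all exons; points are means and lines the range over the 6 samples, for both length definitions. Anxa5, Anxa2 and Anxa1 lead and both receptors sit lowest, under either length.

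Next, Cripto KO was compared with Control to ask whether loss of Cripto in myeloid cells changed these transcripts. None of the 10 genes passed an adjusted p of 0.05 in limma with Benjamini-Hochberg adjustment over all 13008 rows, where 17 rows (0.131%) did. With no adjustment 1 of 10 had p under 0.05, namely Fpr2, against 1117 rows (8.59%) of the table. The groups did not overlap for 1 of 10, again Fpr2, against 1880 rows (14.5%). Of the 10 genes, 6 had a higher and 4 a lower mean log2 signal in Cripto KO, with a median log2 fold change (Cripto KO over Control) of 0.02 against -0.01 over all rows. The 8 annexins had a median absolute log2 fold change of 0.05, against 0.12 over all rows.

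**Figure D2:**
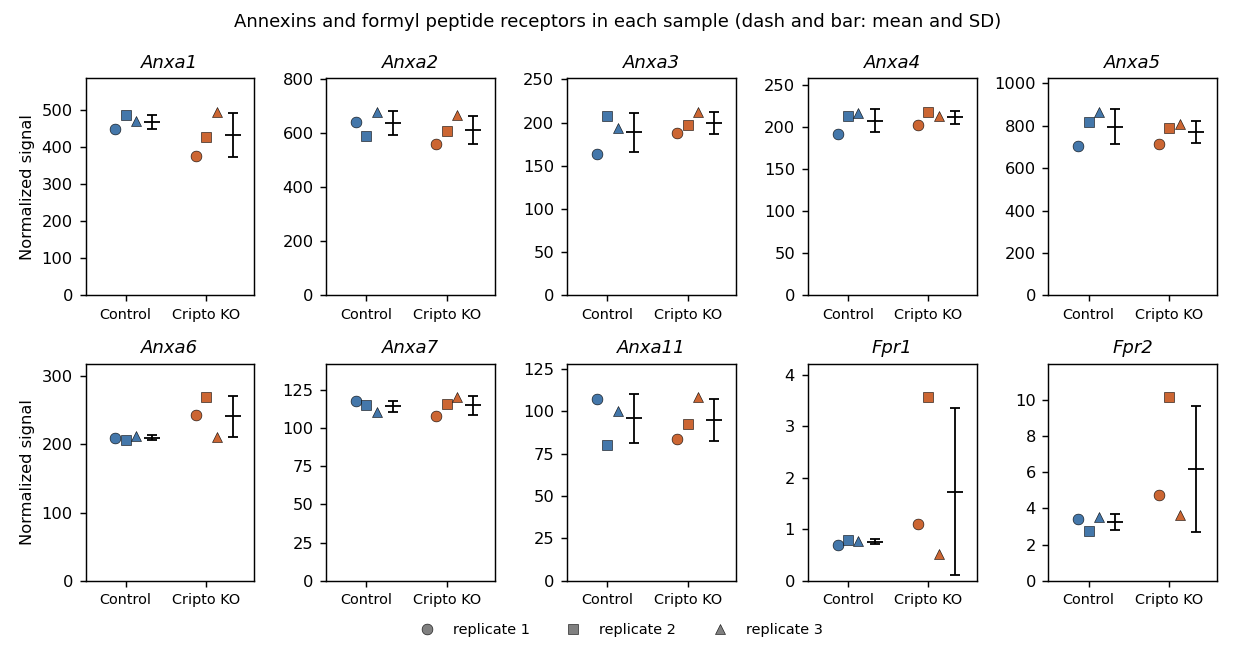
Normalized signal (linear axes from 0) of the 10 genes in the 6 samples; symbols are replicates, and dashes with bars the group mean and SD. The groups overlap for every annexin and for Fpr1, and Cripto KO 2 is far above the other samples for Fpr1 and Fpr2.

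Anxa1, the ligand of the axis, was expressed in all samples with no called difference. Its signal was 449.7, 486 and 469.9 in Control 1 to 3 and 377, 428 and 497 in Cripto KO 1 to 3. Cripto KO held both the lowest and the highest value, and its coefficient of variation was 13.8% against 3.87% in Control. The log2 fold change was -0.12 ± 0.10 (SE, adjusted p = 0.769 in limma), with a 95% interval of 0.790-fold to 1.07-fold. Without Cripto KO 3, the highest sample, it was -0.22 with an unadjusted p of 0.0364 and an adjusted p of 0.855 in limma. Without Cripto KO 1, the lowest sample, it was -0.02 with an adjusted p of 0.966 in limma.

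Anxa2, the plasminogen-binding partner of S100a10, was steady in both groups. Its signal was 640.5, 590.3 and 679.9 in Control against 561, 606 and 666 in Cripto KO, so the groups overlapped and Cripto KO 1 was lowest. The log2 fold change was -0.06 ± 0.09 (adjusted p = 0.879 in limma). It was -0.11 without Control 2 and -0.12 without Cripto KO 3, and -0.01 without Control 3 and -0.0003 without Cripto KO 1. S100a10 itself was 206, 166 and 209 in Control against 167, 207 and 207 in Cripto KO, with a log2 fold change of -0.0002 (adjusted p = 0.999 in limma). The ratio of Anxa2 to S100a10 per kb of exon lay between 0.953 and 1.15 over the 6 samples, and between 1.39 and 1.68 with the longest coding transcripts.

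Anxa5, which binds phosphatidylserine on dying cells, was the most abundant of the 10. Its signal was 703, 818 and 867 in Control against 713, 788 and 808 in Cripto KO. Replicate 1 was the lowest of each group, and the groups overlapped, with a log2 fold change of -0.04 ± 0.09 (adjusted p = 0.924 in limma).

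Anxa6, whose annexin core is duplicated, had the largest difference among the annexins. Its signal was 210.2, 207 and 213 in Control against 243, 269.8 and 210.3 in Cripto KO. Cripto KO 1 and 2 lay above every Control sample, whereas Cripto KO 3 fell inside the Control range. The means were 210.0 ± 3.24 and 241 ± 29.8 (SD, n = 3 each), a log2 fold change of 0.19 ± 0.09 with an unadjusted p of 0.0599 and an adjusted p of 0.603 in limma. It was 0.11 without Cripto KO 2 and 0.29 without Cripto KO 3, where the unadjusted p was 0.00713 and the adjusted p 0.742 in limma.

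The other 4 annexins differed by at most 0.08 on the log2 scale. Anxa3, first known from neutrophil granules, ranged from 164 to 208 in Control and from 188 to 213 in Cripto KO (log2 fold change 0.08 ± 0.09). Anxa4, an annexin of membrane curvature and repair, ranged from 192 to 217 in Control and from 203 to 219 in Cripto KO (0.03 ± 0.07). Both were lowest in Control 1.

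Anxa7 and Anxa11, annexins with long N-terminal regions linked to secretion and to RNA granule transport, were lower and showed no called difference. Anxa7 lay at 117, 115 and 110.1 in Control against 108, 116 and 120.2 in Cripto KO, the narrowest spread of the 10 genes at 1.11-fold from lowest to highest. Anxa11 lay at 108, 79.9 and 100.2 in Control against 83.8, 92.6 and 109 in Cripto KO, the widest spread among annexins at 1.36-fold. The adjusted p was 0.984 and 0.988 in limma. Among the remaining annexins only Anxa9 was in the table, at 3.97 to 5.93 in Control and 4.65 to 4.85 in Cripto KO (log2 fold change -0.06, adjusted p = 0.953 in limma), and the others were not analysed here.

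**Figure D3:**
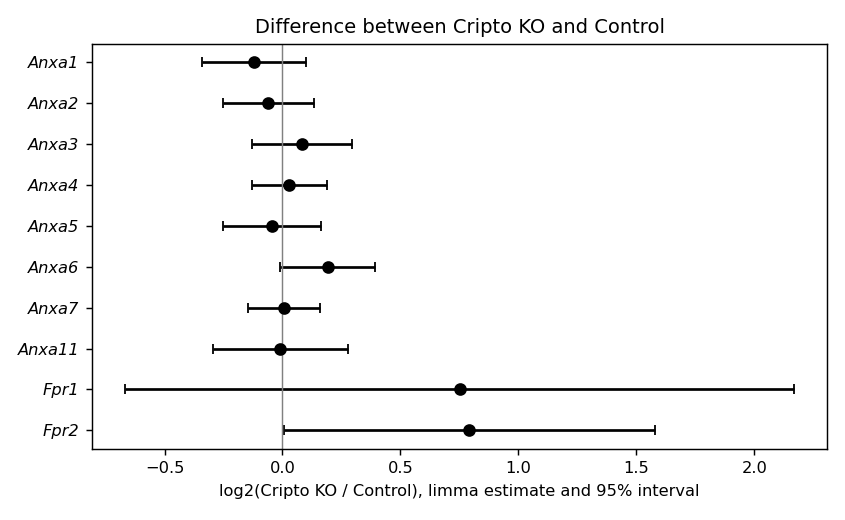
Log2 fold change of Cripto KO over Control for the 10 genes, with the limma estimate as points and its 95% interval as bars. Only the interval of Fpr2 leaves out 0, and intervals of the receptors are wider than those of the annexins.

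Fpr2, the receptor that binds Anxa1 and lipoxin A4, was the only one of the 10 genes whose groups did not overlap. Its signal was 3.42, 2.76 and 3.55 in Control against 4.73, 10.2 and 3.62 in Cripto KO. The value of Cripto KO 2 was well above the others, and that of Cripto KO 3 only just exceeded the highest Control value. The log2 fold change was 0.79 ± 0.35, with an unadjusted p of 0.0489 and an adjusted p of 0.575 in limma, and a 95% interval of 1.00-fold to 2.98-fold. It was 0.36 without Cripto KO 2 and 1.10 without Cripto KO 3. On the recovered reads the unadjusted p was 0.0263 in edgeR and 0.00825 in DESeq2, with adjusted p of 0.543 and 0.441. It was above 0.05 with a pseudocount of 0.5 or 1, without the variance trend, with voom and with the replicate block. Of the fits with a sample left out, only that without Cripto KO 3 had it under 0.05.

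Fpr1, the high-affinity receptor for bacterial formylated peptides, was lower and rested on few reads. Its signal was 0.699, 0.795 and 0.775 in Control against 1.11, 3.57 and 0.517 in Cripto KO. Cripto KO 3 was the lowest of all samples and Cripto KO 2 the highest, so the groups overlapped. The log2 fold change of 0.75 ± 0.63 (unadjusted p of 0.262 and adjusted p of 0.777 in limma) was 0.005 without Cripto KO 2 and 1.40 without Cripto KO 3.

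The read counts behind the receptors were small. Fpr1 had 9, 10 and 9 reads in Control against 17, 50 and 7 in Cripto KO. The exact Poisson 95% interval for the 50 reads of Cripto KO 2, 37.1 to 65.9, lay above that of each other sample, the highest of which was 9.9 to 27.2. Fpr2 had 46, 36 and 43 reads in Control against 74, 143 and 52 in Cripto KO, and the interval of Cripto KO 2, 120.5 to 168.5, likewise lay above all others. These intervals cover counting error only. In bulk samples, fewer cells expressing a receptor and less of its RNA per cell cannot be told apart.

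Fpr2 and Anxa11 share sequence with other genes, so their reads are uncertain. Of all 31-base words in the Fpr2 transcripts, 43.0% also occur in other genes, chiefly Gm5966 (37.606%) and Fpr3 (13.514%), neither of which was in the table. For Anxa11 the share was 15.1%, mostly with Gm2260, which was in the table at 7.30 to 12.5. Shared words were at most 3.198% for each of the other 8 genes and 0 for Anxa1, Anxa2, Anxa5 and Anxa6. Only 1.546% of Fpr1 words occur elsewhere, Fpr2 included.

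Sample by sample, Anxa6 was the annexin whose profile was most like those of the receptors. Over the 6 samples the Pearson correlation of log2 signal was 0.958 between Anxa6 and Fpr2, 0.929 between Anxa6 and Fpr1 and 0.925 between both receptors. In all 3 genes Cripto KO 2 was highest and Cripto KO 1 second. Anxa1 went the other way, with correlations of -0.705, -0.515 and -0.516 to Anxa6, Fpr2 and Fpr1. Among the rest, Anxa4 and Anxa5 had a correlation of 0.873 and Anxa2 and Anxa11 of 0.844. These values describe 6 libraries, which differ in group as well as in replicate.

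**Figure D4:**
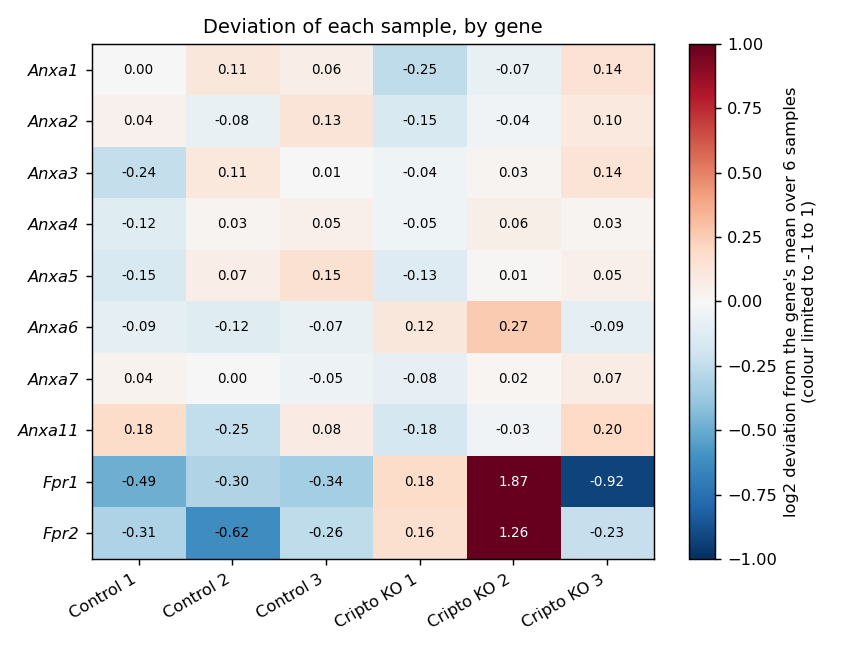
Deviation of each sample's log2 signal from the gene's mean over 6 samples, printed in each cell, with the colour scale limited to -1 to 1. In Cripto KO 2 Fpr1 deviates by 1.87, Fpr2 by 1.26 and Anxa6 by 0.27, and in Cripto KO 3 all of them lie below their means.

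Cripto KO 3 differed from the other Cripto KO samples in several of the genes. It held the highest value of 4 of the 8 annexins (Anxa1, Anxa3, Anxa7 and Anxa11). Without it, Anxa1, Anxa6, Fpr1 and Fpr2 had an unadjusted p under 0.05 in limma and groups that did not overlap, but none had an adjusted p under 0.742. Over all rows, 741 (5.70%) had an unadjusted p under 0.05 in that fit, and 2850 (21.9%) had groups that did not overlap once that sample was left out. The sample was singled out after its values were seen. Summed per kb, the receptors gave 3.17, 2.73 and 3.32 in Control against 4.49, 10.5 and 3.18 in Cripto KO. The annexins summed to 925, 998 and 1047 in Control against 898, 988 and 1027 in Cripto KO.

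Genes with the most similar profiles were sought among rows with a mean signal of at least 10. For Anxa1 they were Sp2, Capns1 and Pagr1a, with a correlation over 6 samples of 0.9892, 0.9887 and 0.9873 among 7729 genes. For Anxa2 they included Hdac7 (0.9804) and Cipc (0.9758). For Fpr2 they were Slc29a1 (0.978), Slc13a3 (0.9698) and Atg16l1 (0.9693), and for Fpr1 Cacybp (0.9787), Memo1 (0.9598) and Mrps9 (0.9515), among 7730 genes. Slc13a3, a carrier of dicarboxylates, was 17.0, 18.1 and 17.3 in Control against 24.0, 41.7 and 19.96 in Cripto KO. It was picked for its likeness to Fpr2 over these same samples, so its difference between groups adds no separate support.

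The binding partners and effectors of these genes were then examined as lists. In the S100 list, 9 of 10 genes were in the table and none passed the adjusted test. S100a10 was the most abundant and S100a16 had the smallest p, at 2.91, 2.01 and 2.90 in Control against 4.60, 4.28 and 3.27 in Cripto KO (log2 fold change 0.64, unadjusted p of 0.0265, adjusted p of 0.524 in limma). The list had a median log2 fold change of 0.03 over the 8 genes above 3 reads in some sample. S100a11, a partner of Anxa1 named here after its values were seen, was 80.5 to 96.3 in Control and 71.4 to 82.1 in Cripto KO.

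Of the plasminogen system, 9 of 10 listed genes were in the table, none passed the adjusted test and the median log2 fold change was -0.07. Ahnak, a large scaffold that binds the Anxa2 complex, was the most abundant. Plgrkt, a plasminogen receptor, had the smallest p, with 37.6, 40.9 and 44.0 in Control against 44.9, 47.5 and 49.9 in Cripto KO (log2 fold change 0.22, adjusted p = 0.536 in limma). Of the membrane repair genes, 15 of 16 were in the table and none was called, with a median of -0.0022, Capns1 (a calpain subunit) as the most abundant and Ehd2 as the smallest p (0.0998, log2 fold change 0.34).

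Downstream of the receptors, 20 of 20 G protein and signaling genes were in the table and none passed the adjusted test, with a median log2 fold change of -0.02. Gnai2, the inhibitory G protein subunit used by these receptors, was the most abundant, at 782 to 863 in Control and 816 to 848 in Cripto KO. Gng2, a gamma subunit, had the smallest p. Its signal was 113, 115 and 119 in Control against 94.5, 90.8 and 91.7 in Cripto KO, with no overlap and a log2 fold change of -0.33 ± 0.06 (unadjusted p of 0.000455, adjusted p of 0.156 in limma).

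The NADPH oxidase, which these receptors activate to release superoxide, had 8 of 8 genes in the table and none called. Of these, 6 were lower in Cripto KO, and the median was -0.11, against -0.01 over all rows. Cyba was the most abundant.

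Among lipid mediator genes, which include the enzymes of lipoxins and prostaglandins, 14 of 18 were in the table. None passed, and the median was 0.02. An unadjusted p under 0.05 in limma was found for 4 of the 14, against 8.59% of all rows, with 2 higher and 2 lower in Cripto KO. Ptgs2, the inducible cyclooxygenase, was nearest to the threshold. Its signal was 331, 317 and 324 in Control against 252, 243 and 246 in Cripto KO. No values overlapped, and the log2 fold change was -0.39 ± 0.06 (unadjusted p of 8.3e-05, adjusted p of 0.0571 in limma). The adjusted p was 0.0369 with robust eBayes and 0.000429 in DESeq2, and over all alternatives it ranged from 0.000429 to 0.336. Ptger4, a prostaglandin E2 receptor named here after its values were seen, was 82.8, 89.6 and 83.1 in Control against 73.4, 67.5 and 65.4 in Cripto KO (-0.31, adjusted p = 0.342 in limma). The 2 higher genes were Pla2g4a and Hpgds, also named after their values were seen. Control and Cripto KO did not overlap for either gene. The log2 fold change of Pla2g4a was 0.36 (unadjusted p of 0.0296, adjusted p of 0.529 in limma). That of Hpgds was 0.18 (unadjusted p of 0.0355, adjusted p of 0.537 in limma). Alox5ap, the most abundant of the list, was 447 to 504 in Control and 437 to 485 in Cripto KO.

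Other ligands of the receptors were sparse. Only 4 of 8 were in the table, none was called, and Camp stayed at or below 3 reads in every sample. App was the most abundant. Saa3, an acute-phase protein, was 5.48, 3.90 and 4.20 in Control against 2.44, 3.65 and 1.90 in Cripto KO (log2 fold change -0.80, unadjusted p of 0.0176, adjusted p of 0.50 in limma).

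Receptors of other chemoattractants were all present (15 of 15) with none called and a median of -0.05. Cxcr4 was the most abundant and P2ry14 had the smallest p (0.0233, log2 fold change -0.34). Glucocorticoid response genes, which include regulators of Anxa1 and its receptor, had 9 of 10 present, none called and a median of -0.05. Zfp36 was the most abundant, and Fkbp5 was 14.4, 14.4 and 16.7 in Control against 11.8, 10.9 and 12.2 in Cripto KO (log2 fold change -0.38, adjusted p = 0.453 in limma).

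**Figure D5:**
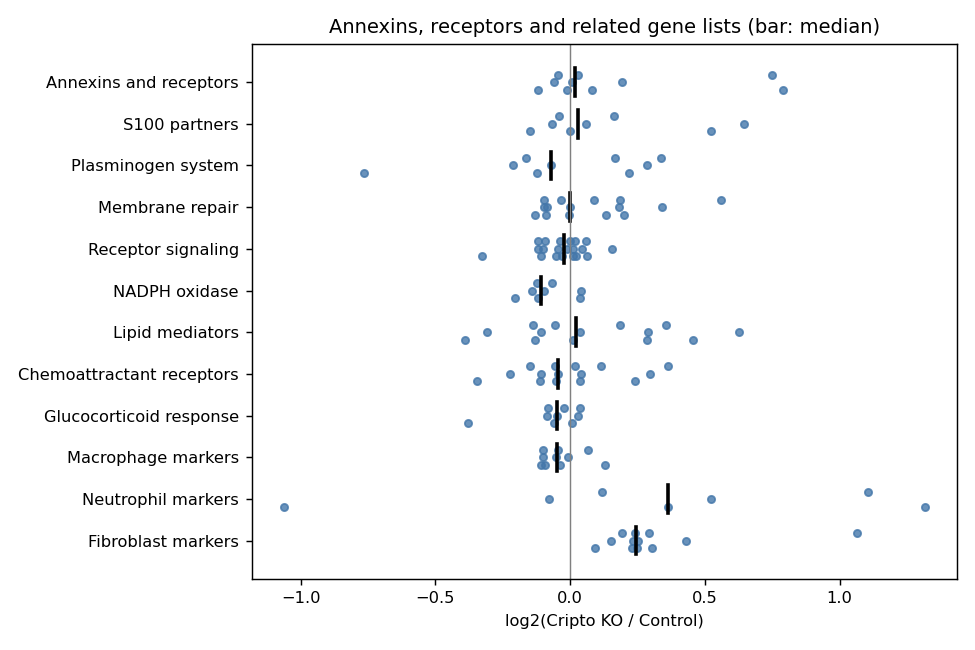
Log2 fold change of Cripto KO over Control for the 10 genes and for lists of related and marker genes, with 1 point a gene above 3 reads in some sample and a bar at each list median. Fibroblast markers all lie above 0, and Fpr1 and Fpr2 are the 2 points farthest right among the annexins and receptors.

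Markers of other cells that express annexins or receptors were read beside these results. Of 12 fibroblast markers, 12 were higher in Cripto KO. Their median log2 fold change was 0.24, against -0.01 over all rows. An unadjusted p under 0.05 in limma was found for 7 of the 12, against 8.59% of all rows, and none was called. The summed signal of these markers, led by Col1a1, was 566, 588 and 600.3 in Control against 693, 726 and 676 in Cripto KO. It was highest in Cripto KO 2 and then Cripto KO 1, as were Anxa6, Fpr1 and Fpr2, but Cripto KO 3 differed. In the fibroblast sum Cripto KO 3 was above every Control sample. It was inside the Control range for Anxa6, lowest of all samples for Fpr1 and only just above Control for Fpr2. Col3a1 had the smallest p (0.00261 unadjusted). Fibroblasts express Anxa1, Anxa2, Anxa5 and Anxa6, of which Anxa6 was higher and the others lower in Cripto KO, with none called. The sort on GFP+/F4/80+ cells is meant to leave fibroblasts out, and the part of these cells in the annexin and receptor values was not tested.

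Neutrophils, which carry Fpr1, Fpr2, Anxa1 and Anxa3, had 11 of 15 markers in the table. Ngp, Retnlg and S100a9 had 0 reads in every sample. S100a8 and Ltf are named here after their values were seen. S100a8 was 0.694 to 1.07 in Control and 1.17 to 1.55 in Cripto KO. Ltf went the other way, at 0.331 to 0.449 in Control and 0.172 to 0.222 in Cripto KO. Both rested on few reads and neither was called. The summed signal of the list was 122 to 138 in Control and 147 to 151 in Cripto KO. Without Mmp9 it was 107, 116 and 109 in Control against 112, 102 and 107 in Cripto KO, so that the groups overlapped. Csf3r was the most abundant, with means of 99.6 ± 3.54 in Control and 94.4 ± 4.33 in Cripto KO (SD, n = 3 each). The part of neutrophils in the receptor values was not tested. Mmp9, a gelatinase that MPs also make, was the only listed gene to pass the adjusted test, at 15.2, 22.4 and 21.9 in Control against 39.3, 45.6 and 41.5 in Cripto KO (log2 fold change 1.10 ± 0.15, adjusted p = 0.0313 in limma). Its adjusted p was 0.296 without the variance trend and 0.0834 to 0.223 without any 1 of the Cripto KO samples or 0.113 without Control 3.

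Monocyte markers (8 of 8 present) were led by F13a1, with Ccr2 as the smallest p (0.106 unadjusted in limma). They summed to 481 to 511 in Control and 487 to 608 in Cripto KO. Macrophage markers, led by Ctsd, had 0 of 10 called and a median of -0.05. Mrc1 had the smallest p of that list (0.0767 unadjusted in limma) and was higher in Cripto KO, unlike the median. Its signal was 593, 602 and 575 in Control against 677, 647 and 616 in Cripto KO (log2 fold change 0.13, adjusted p = 0.64 in limma). Endothelial markers (10 of 10, led by Pecam1, with Tie1 at an unadjusted p of 0.0159) summed to 63.8 to 76.1 in Control and 70.4 to 76.8 in Cripto KO. Muscle markers (9 of 12, led by Acta1, with Tnni2 at an unadjusted p of 0.0281) summed to 39.4 to 66.8 in Control and 27.6 to 61.2 in Cripto KO, and the 2 lymphocyte markers present, led by Cd79a, were at or under 3 reads. None of these lists had a gene with an adjusted p under 0.05 in limma.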

How the data were processed

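RNA of sorted MPs (200 ng a sample, NEBNext Ultra kit) was sequenced on 3 Control and 3 Cripto KO samples. Per the study's methods and the submitters' processing notes, the authors checked reads with FastQC, trimmed them with Cutadapt 1.7.1, dropped those under 30 bp, quantified them with RSEM 1.2.20 on the GRCm38 transcriptome (release 91) and normalized them with limma. The deposited table holds 1 normalized signal per gene and sample. Each value was a whole read count plus 0.5, per 1000000 of a scaled library size (100% of 78048 values whole within 0.01 read), so reads were recovered. RSEM splits reads among similar genes, and rounding before deposit cannot be seen.

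Log2 signal without a pseudocount was fitted over all 13008 rows with limma 3.58.1 (lmFit, eBayes with trend, two-sided, R 4.3.3). The fit was tested on simulated counts in which only genes with a mean signal of at least 10 were changed. Fpr1 and Fpr2 had means of 1.25 and 4.71, so a change in genes that low was not tested. Alternatives were pseudocounts of 0.5 and 1, a mean signal of at least 1, median centring, quantile normalization, eBayes without trend or robust, voom, edgeR 4.0.16 and DESeq2 1.42.0 on recovered reads, the replicate number as a block and leave-one-out fits. The genes and lists were chosen with earlier results of these data known. Named were all 10 genes, in each list the most abundant gene, the gene with the smallest p and any with an adjusted p under 0.05, and the 3 genes most correlated with Anxa1, Anxa2, Fpr1 and Fpr2. Some genes that this rule names are not reported here. Genes at or under 3 reads in every sample were given no fold change. Shared sequence was counted as 31-base words of GENCODE M21 transcripts. Protein sequences were not used here.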

Additional observations from a re-analysis of the deposited data

How the results depend on the processing

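None of the 10 genes had an adjusted p under 0.05 under any alternative (range 0.441 to 1). Their unadjusted count of 1 became 0 with a pseudocount of 0.5 or 1, without the variance trend, with voom and with the replicate block, 2 with edgeR and with DESeq2, and 0 to 4 when 1 sample was left out, where the count of genes whose groups did not overlap was 1 to 4. Over all rows the unadjusted count was 1102 with edgeR, 759 with DESeq2 and 741 to 1360 with a sample left out, where 21.9% to 28.1% of rows had groups that did not overlap. Over all rows the count of 17 was 6 with quantile normalization, 5 without the trend, 31 with robust eBayes, 9 with voom, 71 with DESeq2, 2 with the replicate block and 5 to 31 with a sample left out (31 without Control 1, 5 without Cripto KO 2). The list genes called (1, Mmp9) were 0 with quantile normalization, without the trend and with the replicate block, 2 with robust eBayes and DESeq2 (Ptgs2 in addition), and 0 to 1 with a sample left out. The order by length kept 7 of 10 ranks with the longest coding transcript. The cause of these moves was not tested. Same-numbered samples had correlations of deviations of -0.21, -0.00522 and -2.46e-05, so the numbers were not read as pairs.

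The 10 genes kept their direction in 156 of the comparisons with an alternative and reversed in 14, all of them annexins near 0. Log2 fold changes reversed to 0.0082 for Anxa2 and 0.0396 for Anxa11 with quantile normalization, and to 0.0006 for Anxa11 with voom. With a sample left out they ranged from -0.2216 to -0.0233 for Anxa1, -0.1247 to -0.0003 for Anxa2, -0.0146 to 0.1559 for Anxa3, -0.026 to 0.0625 for Anxa4, -0.1314 to 0.0198 for Anxa5, -0.0272 to 0.0505 for Anxa7, -0.1362 to 0.0782 for Anxa11 and -0.2195 to 0.0689 for Anxa9. Anxa6, Fpr1 and Fpr2 stayed higher in Cripto KO and Anxa1 lower under every alternative run. Depth limits Fpr1 most, with 7 to 50 reads a sample.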
